A study of Mus musculus with 4 samples.

Results

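Cartilage matrix genes and the transcription factor Sox9 were examined on 4 mouse expression arrays. The set held 10 named genes: Sox9, Acan, Hapln1, Matn1, Matn3, Cnmd (named Lect1 on the array), Ucma, Cytl1, Cilp and Prg4. They took up 11 of the 39429 probes and 10 of the 30458 gene names on the array. Sox9 is the master regulator of chondrocytes, the cells that make cartilage, and it acts with Sox5 and Sox6 on the genes of the cartilage matrix. That matrix is built on collagen II fibrils and on aggrecan, a proteoglycan that binds hyaluronan through link protein and holds water under load. Matrilins connect these components, and the fibrocartilage zones where ligament joins bone carry many of the same proteins.

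The transfected tissue was ligament-like tissue formed by mesenchymal stem cells of C3H background after transfection of a mouse gene, called only A in the labels, in the expression plasmid pCAGGS. Tg ligament came from mice of C57BL/6J background that carried a pCAGGS-A transgene introduced into fertilized eggs, and the CAG promoter of that plasmid is active in most cell types. WT ligament came from wild type C57BL/6J mice. The stem cells were the C3H mesenchymal stem cells themselves, derived from mouse embryos, supplied by a cell bank and grown in serum-containing medium. Each group was 1 array of total RNA labelled with Cy3. The labels used here give no age, ligament site, number of animals or number of cultures, and they name no vector-only control. Strain, origin and culture differ together whenever cells or tissue are set against ligament. The study's design asks whether A turns stem cells into ligament tissue.

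With 1 array per group no difference below has a replicate check, and no test or p-value was made. All 4 arrays shared a slide and a scan time. Processed signal is the scanner software's background-subtracted spot intensity, given with that software's own error estimate as ±, which covers measurement on 1 array only. The normalised level is log2 of that signal minus log2 of the array's 75th percentile, which was 2272 in the transfected tissue, 303 in Tg ligament, 285 in WT ligament and 1165 in stem cells. A difference is one normalised level minus another. A probe was taken as detected where the software marked it well above background, which held for 49.0% to 56.3% of spots on an array. The lowest detected signal corresponded to a normalised level of -5.71 in the transfected tissue, -3.90 in Tg ligament, -3.41 in WT ligament and -5.79 in stem cells, so low levels were harder to see in ligament. Where only 1 of the arrays compared detected a gene, its fold is a bound, written as at least N-fold, against the higher of the dim probe's own signal and the lowest detected signal of that array. Where that bound came out under 1-fold, or neither array detected the gene, no value is given.

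Cell type markers were checked against the labels. Of 10 ligament and tendon markers, 8 were detected in the transfected tissue (all but Thbs4 and Tnc), 10 in Tg ligament, 9 in WT ligament (all but Mkx) and 9 in stem cells (all but Kera). Against stem cells, 1 of the 10, Kera, was higher in the transfected tissue (at least 5.91-fold, under 2-fold with normexp background correction). Another 4 were at least 2-fold lower, Tnc (at least 4.89-fold), Thbs2 (-1.81), Scx (-1.75) and Col1a1 (-1.07, within 2-fold under some alternatives). The list median was -0.71, and of all genes compared 11.0% were higher and 13.3% lower. In stem cells the stromal markers Thy1, Vcam1, Itgb1, Cd44, Eng and Alcam were detected, at signals from 453 for Alcam to 44909 for Thy1, and Nt5e was not well above background. Ptprc, a marker of blood cells, and Pecam1, of endothelium, which the stromal list holds as negative markers, were detected there at 88.4 for Ptprc and 43.5 for Pecam1. Both ligament arrays also held markers of other cells. All 11 skeletal muscle markers and all 8 neutrophil markers were detected on both. The linear levels of the muscle markers, each divided by the 75th percentile of its array, summed to 6807 in Tg ligament and 7873 in WT ligament, against 0.768 in the transfected tissue and 2.14 in stem cells.

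The 4 arrays detected different genes of the set. The transfected tissue had 6 of the 10 genes detected, where 55.2% of all genes were detected. Tg ligament had 8 (53.9% of all genes), WT ligament 3 (49.7%) and stem cells 6 (55.6%). Cytl1 was detected on every array, and Matn1, which encodes a matrilin of cartilage, on none. Sox9 was strong in the transfected tissue and in stem cells and near or below the limit of detection in both ligaments. Cilp and Prg4 had the opposite distribution, with Prg4 also detected in stem cells. Less RNA per cell and fewer cells of a type cannot be told apart in such samples.

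**Figure D1:**
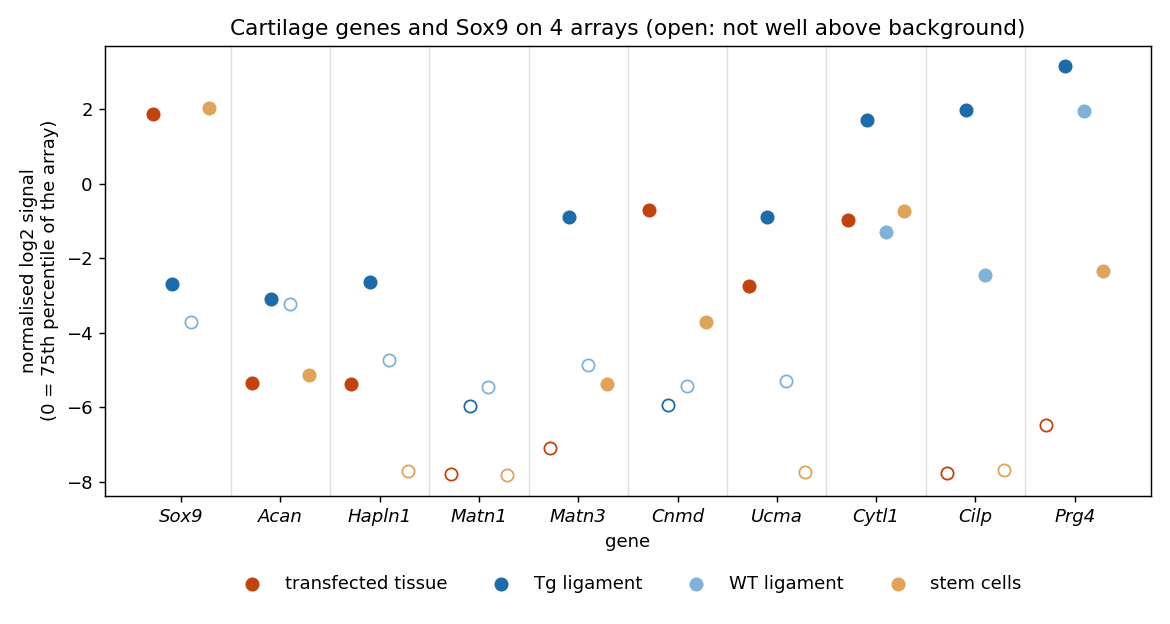
Normalised log2 signal (y axis, 0 is the 75th percentile of the array) of the 10 genes (x axis) in the transfected tissue, Tg ligament, WT ligament and stem cells, 1 point per array, open where the probe was not well above background. Sox9 stood at 1.87 in the transfected tissue and 2.03 in stem cells, against -2.69 in Tg ligament and -3.72 in WT ligament, while Cilp was detected in the ligaments only.

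Sox9 was read by 10 spots of 1 probe (chr11:112648809-112648868 in mm9, the build named in the file headers). Its mean processed signal was 8318 ± 832 in the transfected tissue, 47.4 ± 6.76 in Tg ligament, 22.1 ± 6.75 in WT ligament and 4826 ± 483 in stem cells. The geometric mean of the spots was 366% of the array's 75th percentile in the transfected tissue, 15.5% in Tg ligament, 7.60% in WT ligament and 409% in stem cells. The transfected tissue and stem cells therefore lay close together, with a difference of -0.16 and an error-model SD of 0.20 on the log2 scale. In WT ligament none of the 10 spots was well above background, and Sox9 was at least 43.5-fold lower there than in stem cells and at least 38.9-fold higher in the transfected tissue than in WT ligament. With normexp background correction these bounds came to -3.86 and 3.75 on the log2 scale, against -5.44 and 5.28 here. All 10 spots were detected in Tg ligament, where Sox9 was at least 1.65-fold higher than in WT ligament, a bound that does not reach 2-fold and does not say whether the difference does. The spots ranged from 7829 to 8746 in the transfected tissue, from 37.9 to 57.1 in Tg ligament and from 12.8 to 27.8 in WT ligament. These spots share 1 array and 1 RNA sample per group, so their ranges show no spread between samples. In stem cells 1 spot read 2907 and the other 9 lay between 4716 and 5306.

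**Figure D2:**
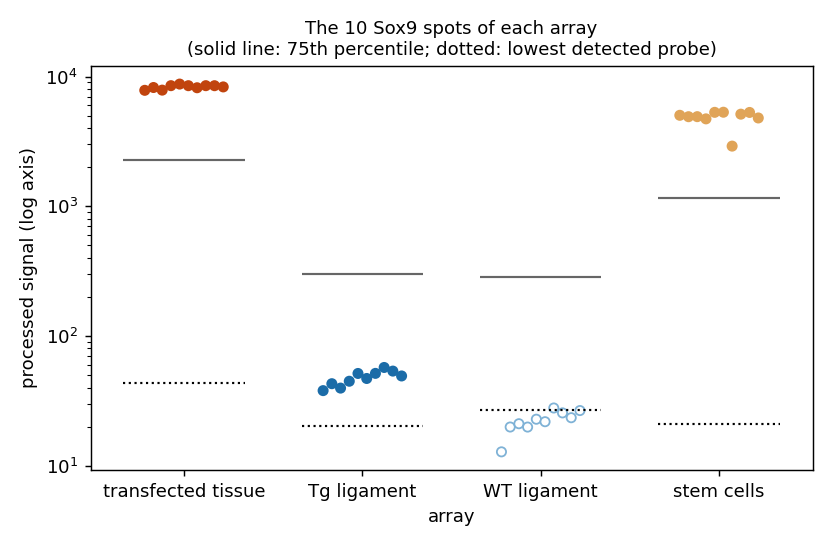
Processed signal (y axis, log scale) of the 10 Sox9 spots on each array, with the array's 75th percentile as a solid line and its lowest detected signal as a dotted line, and open points where a spot was not well above background. Spots lay between 7829 and 8746 in the transfected tissue, above the 75th percentile of 2272, and between 12.8 and 27.8 in WT ligament, with none well above background.

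Between WT ligament and stem cells the partners of Sox9 behaved unlike it. Sox5 had a signal of 27105 in the transfected tissue, 19604 in Tg ligament, 12493 in WT ligament and 13562 in stem cells, so it was strong on all 4 arrays. Its difference was 0.03 between the transfected tissue and stem cells and 0.57 between Tg and WT ligament. Signals are not scaled between arrays, and by normalised level Sox5 was 3.76-fold higher in WT ligament than in stem cells. In the transfected tissue Sox5 was 3.67-fold lower than in WT ligament, but under 2-fold with quantile normalization and in the deposited values. Sox6 read 94.4 in the transfected tissue, 156 in Tg ligament and 215 in WT ligament, and was not well above background in stem cells. Sox6 was at least 41.5-fold higher in WT ligament than in stem cells. It was at least 2.29-fold higher in the transfected tissue than in stem cells, where normexp background correction gave a bound of 0.03 on the log2 scale.

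Among 18 regulators of chondrocytes, Sox9 and its partners included, 12 had a value in the transfected tissue against stem cells, with 1 higher (Sox6) and 3 lower. Those lower were the parathyroid hormone receptor Pth1r (-2.21), the ubiquitin ligase Wwp2, whose gene hosts the cartilage microRNA miR-140 (-1.88), and the transcription factor Runx3 (-1.44). Runx2, which drives hypertrophic chondrocytes and osteoblasts, read 859 in the transfected tissue and 357 in stem cells, a difference of 0.30, and was not detected in either ligament. Pax9, a regulator of early axial cartilage, read 1527 in the transfected tissue and 421 in stem cells (0.90) and was likewise not detected in ligament. Nkx3-2, Ihh, Foxa2, Barx1 and Pax1 were detected on none of the arrays. In Tg against WT ligament 11 regulators had a value and 1 was past 2-fold, the growth factor receptor Fgfr3, with 491 in Tg ligament and 203 in WT ligament (1.19, or 0.58 in the alternative that moved it most).

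Aggrecan, the product of Acan, and its partners gave faint signals throughout. Acan (chr7:86259741-86259801) read 55.4 ± 11.8 in the transfected tissue, 35.2 ± 6.06 in Tg ligament, 30.6 ± 7.29 in WT ligament and 32.9 ± 6.28 in stem cells, and the WT ligament value was not well above background. The transfected tissue differed from stem cells by -0.21, with an error-model SD of 0.41, which is within 2-fold. Tg ligament was at least 1.09-fold above WT ligament. Hapln1, the link protein that locks aggrecan onto hyaluronan (chr13:89751096-89751155), was detected in the transfected tissue at 54.5 ± 11.9 and in Tg ligament at 48.2 ± 7.07. In WT ligament and stem cells, at 10.8 and 5.61, it was not. Its bounds were at least 1.32-fold higher in the transfected tissue than in stem cells and at least 1.69-fold higher in Tg than in WT ligament. Taken without a bound, these differences were 2.32 and 2.07 on the log2 scale.

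Matrilin 3, which ties collagen IX to other matrix proteins, stood out in Tg ligament. Matn3 (chr12:8977503-8977562) read 16.6 in the transfected tissue, 162 ± 16.8 in Tg ligament, 9.79 in WT ligament and 28.0 ± 5.18 in stem cells, and only the Tg ligament and stem cell values were well above background. It was at least 5.70-fold higher in Tg than in WT ligament (2.51 on the log2 scale, or 1.45 with normexp correction). Between the transfected tissue and stem cells the bound was at least 1.26-fold lower, and the difference without a bound was -1.72. Matn1 (chr4:130511217-130511276) read from 4.82 to 10.2 and was detected nowhere.

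Matrilins outside the set were distributed otherwise. Matn2, of many connective tissues, read 33522 in the transfected tissue, 706 in Tg ligament, 205 in WT ligament and 16392 in stem cells. Matn4 read 6225 in the transfected tissue, 64.0 in Tg ligament and 2790 in stem cells and was not detected in WT ligament. Of 8 such matrilins, link proteins and related proteoglycans, 5 had a value in the transfected tissue against stem cells and none was past 2-fold, from Vcan at -0.71 to Hapln4 at 0.56. In Tg against WT ligament 2 of 4 were higher, Matn2 at 3.24-fold and Matn4 at least 2.25-fold, and Matn4 was under 2-fold with normexp correction.

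Chondromodulin, the product of Cnmd, is an inhibitor of vessel growth in cartilage and a relative of the tendon protein tenomodulin. Its probe (minus strand, with ends 4855 bases apart at chr14:80045279-80050133) is shown since the values of a gene that was higher in the transfected tissue rest on it alone.
Cnmd probe: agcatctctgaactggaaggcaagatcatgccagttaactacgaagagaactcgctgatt
The probe has a reading frame with no stop codon across its 60 bases. Cnmd read 1392 ± 140 in the transfected tissue, 4.96 in Tg ligament, 6.69 in WT ligament and 89.0 ± 10.4 in stem cells. Neither ligament value was well above background. It was 8.01-fold higher in the transfected tissue than in stem cells (3.00 ± 0.22 on the log2 scale, error-model SD) and at least 6.51-fold higher than in WT ligament (2.70). Normexp correction gave 2.26 against stem cells and a bound of 1.28 against WT ligament.

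Ucma, a secreted vitamin K-dependent protein of cartilage, was the second gene that was higher in the transfected tissue. It read 339 ± 35.5 in the transfected tissue, 162 ± 16.9 in Tg ligament, 7.26 in WT ligament and 5.44 in stem cells (probe at chr2:4906712-4906771), and was not well above background on the WT ligament and stem cell arrays. Ucma was at least 8.25-fold higher in the transfected tissue than in stem cells and at least 5.68-fold higher in Tg than in WT ligament. These bounds, 3.04 and 2.50 on the log2 scale, came to 1.29 and 1.27 with normexp correction. No other gene of the set was past 2-fold upward in both of these comparisons.

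The promoters of Cnmd and Ucma, which were both higher in the transfected tissue, and of Cilp, which had the largest difference of the set between Tg and WT ligament, are given from RefSeq (GRCm38.p6), from 250 bases before to 50 after the start of the gene. Of the 10 genes, 8 were matched in that table. Capitals mark CATCTG, an E-box of the kind scleraxis binds, read on either strand.
Cnmd promoter (chr14:79662134-79662433, minus strand): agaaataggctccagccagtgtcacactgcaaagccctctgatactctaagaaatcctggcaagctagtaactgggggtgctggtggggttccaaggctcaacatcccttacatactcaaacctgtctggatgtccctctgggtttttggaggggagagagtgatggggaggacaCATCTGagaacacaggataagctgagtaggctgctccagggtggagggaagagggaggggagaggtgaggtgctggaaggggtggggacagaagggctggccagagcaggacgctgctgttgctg
Ucma promoter (chr2:4975872-4976171, plus strand): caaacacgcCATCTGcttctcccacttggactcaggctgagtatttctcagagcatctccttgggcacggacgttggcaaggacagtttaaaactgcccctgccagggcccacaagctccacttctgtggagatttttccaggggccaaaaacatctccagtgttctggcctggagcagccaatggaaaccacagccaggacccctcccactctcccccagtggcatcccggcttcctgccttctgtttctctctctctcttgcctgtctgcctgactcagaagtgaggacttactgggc
Cilp promoter (chr9:65264930-65265229, plus strand): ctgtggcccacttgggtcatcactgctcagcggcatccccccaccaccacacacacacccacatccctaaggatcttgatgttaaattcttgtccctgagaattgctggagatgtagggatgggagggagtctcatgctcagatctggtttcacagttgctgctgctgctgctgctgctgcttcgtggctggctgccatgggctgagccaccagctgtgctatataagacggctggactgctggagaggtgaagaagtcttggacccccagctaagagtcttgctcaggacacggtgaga
CATCTG or its reverse complement occurred in 2 of the 8 promoters, at -75 in Cnmd and -241 in Ucma, counted from the start of the gene, and in 17.2% of all 32851 promoters. The SOX-type words ACAAAG and ACAATG, searched together on both strands, were in 0 of the 8 and in 28.6% of all promoters. TATAAA, searched likewise, was in 0 of the 8 and in 13.6% of all. None of the words overlaps another in these promoters. The median GC content was 56% in the 8 promoters and 52.7% in all.

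Cytl1, a small secreted protein of chondrocytes (chr5:38130789-38130848), was the gene detected on all arrays. It read 1150 ± 115 in the transfected tissue, 985 ± 98.7 in Tg ligament, 116 ± 13.2 in WT ligament and 694 ± 69.5 in stem cells. Tg ligament stood apart from the other 3 arrays, at 326% of its 75th percentile, against 50.6% in the transfected tissue, 40.7% in WT ligament and 59.6% in stem cells. It was 7.99-fold higher in Tg than in WT ligament (3.00 ± 0.22). Its difference between the transfected tissue and stem cells was -0.23 ± 0.20. WT ligament differed from stem cells by -0.55 ± 0.22, and the transfected tissue from WT ligament by 0.31 ± 0.22, all within 2-fold.

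Cilp encodes the cartilage intermediate layer protein, found in articular cartilage, tendon and ligament. It read 10.5 in the transfected tissue, 1191 ± 119 in Tg ligament, 51.8 ± 8.58 in WT ligament and 5.63 in stem cells (probe at chr9:65128007-65128066), and was well above background in the ligaments only. In Tg ligament it was 21.7-fold higher than in WT ligament (4.44 ± 0.28), the highest difference or bound among the 16425 genes compared there. With normexp correction that difference was 3.19. WT ligament was at least 10.0-fold above stem cells, and the transfected tissue at least 9.52-fold below WT ligament. These bounds, 3.32 and -3.25 on the log2 scale, were smallest at 2.25 with normexp correction and at -2.19 with quantile normalisation. The transfected tissue and stem cells could not be compared, since neither detected it.

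Prg4 encodes lubricin, the boundary lubricant that synovial cells and superficial chondrocytes secrete. Its brighter probe (chr1:152297067-152297126, minus strand) read 25.6 in the transfected tissue, 2672 ± 267 in Tg ligament, 1090 ± 109 in WT ligament and 229 ± 23.3 in stem cells, and only the transfected tissue was not well above background. Prg4 was 2.31-fold higher in Tg than in WT ligament (1.21 ± 0.20) and 19.4-fold higher in WT ligament than in stem cells (4.28 ± 0.21). In the transfected tissue it was at least 10.3-fold lower than in stem cells and at least 200.5-fold lower than in WT ligament. A second probe of the gene (chr1:152296620-152296679) read from 5.71 to 12.5 and was detected on no array, and averaging both probes brought the difference between the transfected tissue and stem cells to -0.94, within 2-fold. The same averaging brought the difference between the transfected tissue and WT ligament to -3.86, and that between WT ligament and stem cells to 2.92.

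Set against stem cells, the transfected tissue had 2 cartilage genes higher (Cnmd and Ucma), 1 lower (Prg4), 3 within 2-fold (Sox9, Acan and Cytl1) and 2 with a bound that does not reach 2-fold (Hapln1 and Matn3), among 8 with a value. Of all 17900 genes compared, 24.3% were past 2-fold (11.0% higher, 13.3% lower), and their median difference was -0.08. Cartilage collagens gave none higher and 1 lower of 8, collagen II (Col2a1) at -1.04, which was within 2-fold under 4 of the 8 alternative settings. Col2a1 read 13567 in the transfected tissue and 14320 in stem cells. Among 12 further cartilage matrix proteins, 9 had a value, 2 of them higher and 3 lower. The small proteoglycan epiphycan (Epyc) was 21.2-fold higher, with 4428 in the transfected tissue and 107 in stem cells, and Chadl, a collagen-binding leucine-rich protein, was 4.61-fold higher. Lower were Otor, a secreted protein of cartilage and inner ear (-3.64), the calcification inhibitor Mgp (-3.06) and Prelp (-1.03, within 2-fold under 3 alternatives). Comp (0.02), Fmod (-0.07) and Itgbl1 (0.19) lay near 0.

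Set against WT ligament, Tg ligament had 5 cartilage genes higher (Matn3, Ucma, Cytl1, Cilp and Prg4), none lower and 3 with a bound that does not reach 2-fold (Sox9, Acan and Hapln1), among 8 with a value. Of all 16425 genes compared, 13.3% were past 2-fold (6.29% higher, 7.05% lower), and their median difference was -0.03. Cytl1, Cilp and Prg4 were measured on both arrays, while Matn3 and Ucma have only a bound. Of 8 further cartilage matrix proteins with a value 7 were also higher, with a median of 2.05 that stayed between 1.19 and 2.19 under the alternatives. These were Itgbl1, an integrin-like secreted protein (6.37-fold), the pentameric matrix protein Comp (5.99-fold), Mgp (4.72-fold), fibromodulin (Fmod, 4.44-fold), Cilp2 (3.86-fold), chondroadherin (Chad, 2.88-fold) and Snorc (2.84-fold). Cilp2 came under 2-fold, at 0.89 on the log2 scale, with normexp correction. Comp read 1344 in Tg ligament and 212 in WT ligament, and Chad 412 in Tg ligament and 135 in WT ligament. Of 6 cartilage collagens with a value, Col2a1 was 4.46-fold higher, with 1561 in Tg ligament and 330 in WT ligament, and Col11a2 was 2.10-fold higher, under 2-fold with normexp correction. Col9a1 (0.53), Col9a2 (0.27), Col10a1 of hypertrophic cartilage (-0.34) and Col11a1 (-0.31) were within 2-fold.

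**Figure D3:**
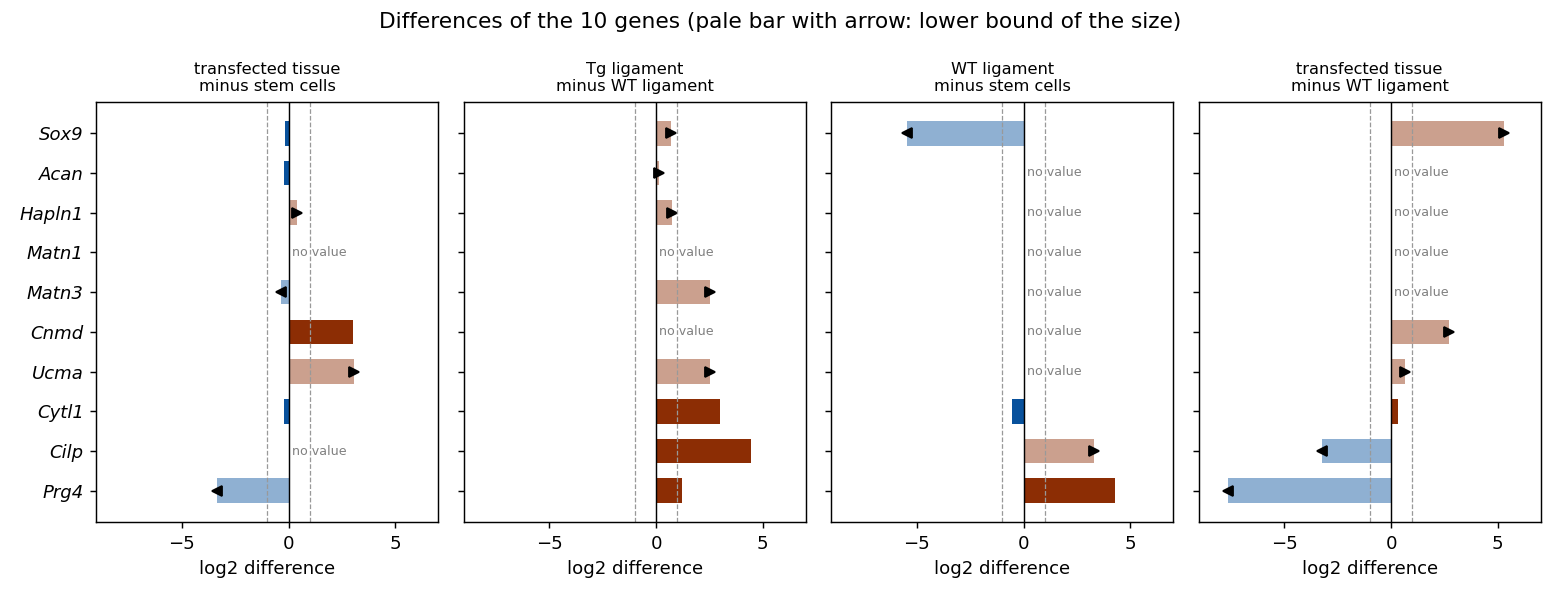
Log2 difference (x axis) of each of the 10 genes (rows) in the 4 comparisons, with dashed lines at 2-fold and pale bars with an arrow where the value is a bound. Tg ligament had 5 genes at least 2-fold above WT ligament and none below, while the transfected tissue had 2 above and 1 below stem cells.

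WT ligament was then set against stem cells, which also contrasts strain and origin. Cilp and Prg4 were higher in WT ligament, Sox9 was lower, and Cytl1 lay within 2-fold, among only 4 genes with a value. Of the 16603 genes compared, 62.2% were past 2-fold (37.7% higher, 24.5% lower in WT ligament). The same 3 genes differed in the transfected tissue against WT ligament, where Sox9 was higher and Cilp and Prg4 were lower, and Cnmd was higher as well. Ucma was at least 1.59-fold higher and Cytl1 within 2-fold, which makes 6 genes with a value. Of the 16542 genes compared there, 62.7% were past 2-fold (23.0% higher, 39.7% lower). These comparisons share the WT ligament array, so they are not separate observations. Col2a1 was 10.6-fold lower in WT ligament than in stem cells and 5.17-fold higher in the transfected tissue than in WT ligament.

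Genes of chondroitin chain synthesis and of proteases that cut aggrecan and collagen II were also compared between the related arrays. Of 17 genes of sulphate and chondroitin chain synthesis, 16 had a value in the transfected tissue against stem cells, with 2 higher, Chst15 (1.57) and Csgalnact1 (1.02), and 2 lower, Chsy3 (at least 6.55-fold) and Ugdh (-1.02). In Tg against WT ligament 1 of 14 was higher, Ugdh at 1.01. Among 9 proteases and inhibitors that act on aggrecan and collagen II, the aggrecanase Adamts5 (1.57) and the membrane protease Mmp14 (1.57) were higher in the transfected tissue, and Mmp13 was at least 2.19-fold lower. Ugdh in both comparisons, Adamts5 and Mmp13 came within 2-fold under at least 1 alternative. In Tg ligament the neutrophil collagenase Mmp8 was lower than in WT ligament (-2.72) and the other 6 with a value were within 2-fold.

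Markers of other tissues also differed between the ligament arrays. Of 8 epidermis markers, 7 were higher in Tg than in WT ligament, and their summed level was 176 in Tg ligament and 32.8 in WT ligament. Of 9 bone markers with a value 6 were higher (sums of 318 in Tg ligament and 203 in WT ligament), and of 10 ligament and tendon markers 7 were higher (148 in Tg ligament and 162 in WT ligament), led by Comp and Tnmd. Comp and Fmod belong both to that list and to the cartilage matrix list. Col1a1, which the bone list also holds, weighs most in the ligament sums. Its normalised level was the highest of the ligament list on both arrays, 6.70 in Tg ligament and 7.22 in WT ligament, within 2-fold (-0.52). All 8 neutrophil markers were lower in Tg ligament, with sums of 427 in Tg ligament and 1195 in WT ligament, as were 6 of 7 erythroid markers, with sums of 119 in Tg ligament and 548 in WT ligament. Of 6 synovial lining markers Prg4 itself and Htra4 were higher (at least 2.51-fold for Htra4, or 0.42 on the log2 scale with normexp correction), Clic5 (0.25) was within 2-fold, and Has1 was not detected on any array. The part of these cells in the cartilage differences was not tested. Between the transfected tissue and stem cells, 4 of 6 adipocyte markers were higher, led by Cfd and Adipoq, and 5 of 8 genes of the stromal list were lower, among them Alcam (-2.47), Cd44 (-2.05) and Ptprc, which the list holds as a negative marker (at least 3.99-fold). In the transfected tissue the neutrophil, erythroid and epidermis lists summed to between 0.296 and 0.564.

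**Figure D4:**
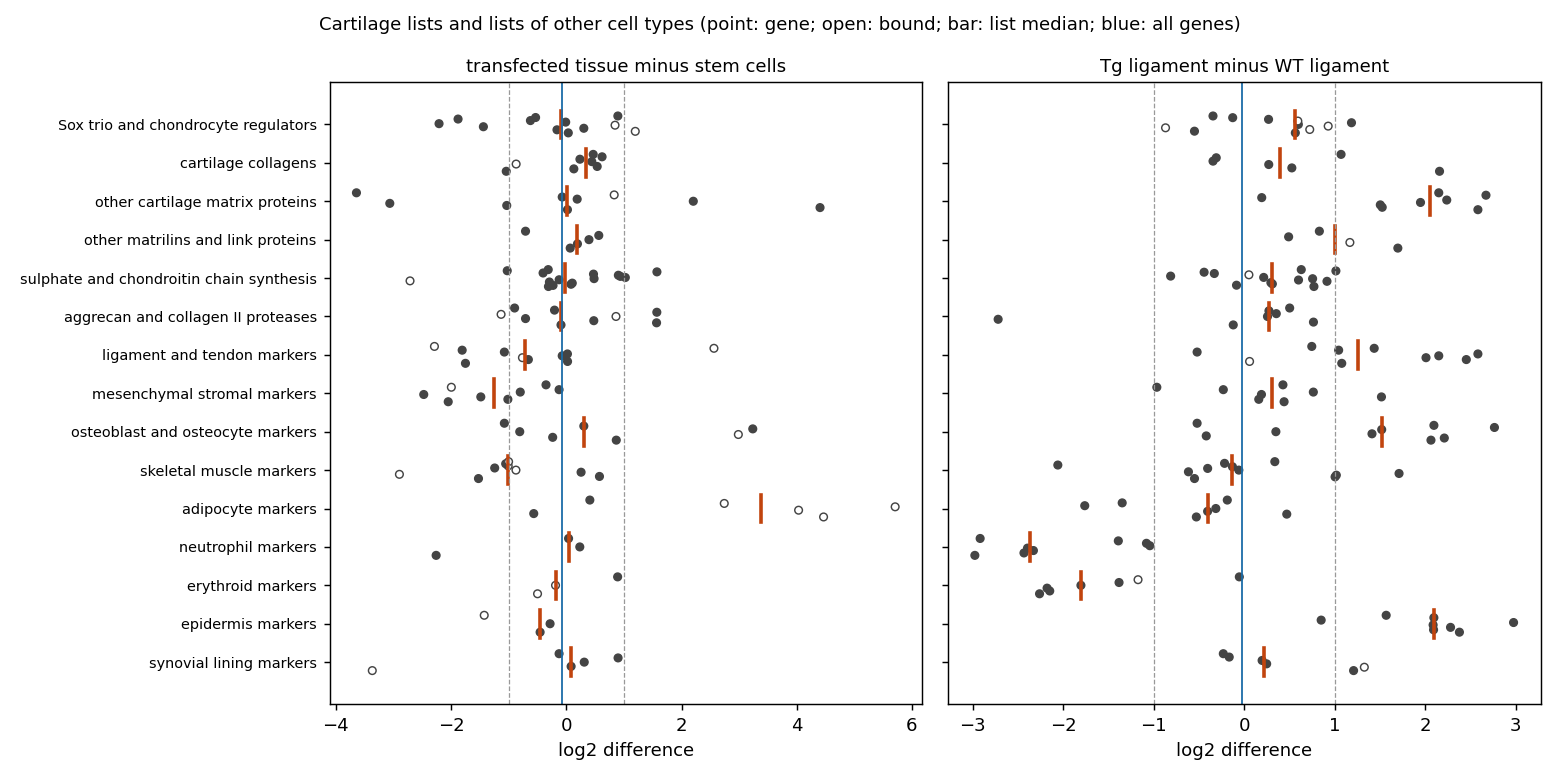
Log2 difference (x axis) of each gene (points, open for a bound) of the cartilage lists and the lists of other cell types (rows), for the transfected tissue against stem cells at left and Tg against WT ligament at right, with the list median as an orange bar, the median of all genes as a blue line and 2-fold as dashed lines. In Tg against WT ligament the median was 2.05 for further cartilage matrix proteins, 2.09 for epidermis markers and -2.36 for neutrophil markers.

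The genes nearest in pattern were found by the distance between centred profiles of 4 normalised levels, over 17673 genes detected on at least 2 arrays. Nearest to Sox9 were Farp1 (distance 0.13), Adgra2 (0.21) and Bmp4 (0.22), and nearest to Acan were Syne4 (0.08), Cnnm3 (0.09) and Oscar (0.09). Nearest to Cilp were 2310046K23Rik (0.66) and the cornified envelope genes Lce1d (0.88) and Lce1b (0.94), and nearest to Prg4 were Hspb3 (0.77), the troponin gene Tnnc1 (0.80) and Khdrbs3 (0.98). Sox9 and Acan thus had close neighbours and Cilp and Prg4 more distant ones. The Acan profile rests on faint signals near the limit of detection. Its levels were -5.36 in the transfected tissue, -3.10 in Tg ligament, -3.22 in WT ligament and -5.14 in stem cells. The lowest detected levels of these arrays were -5.71, -3.90, -3.41 and -5.79. The normalised levels of Cilp and Prg4, with dim signals left as read, also spanned more, 9.74 and 9.62, against 5.75 for Sox9 and 2.25 for Acan. The lowest levels of Cilp, Prg4 and Sox9 were not well above background, so these spans depend on dim signals. The profiles used for the distances rest on 4 arrays, with dim signals set to the detection limit.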

How the data were processed

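Total RNA of 4 samples was hybridised to Agilent single-colour (Cy3) arrays, 1 per group. The authors deposited scanner output whose spot intensity is linear, background-subtracted and detrended, with no scaling between arrays, and with marks (0 or 1) for spots well above background, per the file headers. The headers name Feature Extraction 10.7.1.1 and build mm9, while the submitters' processing notes name 9.5.1.1. The deposited value table holds linear intensity whose 4 columns have nearly equal quantiles, with a median of 49.7, and its method is not given in the sources used here.

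Each array held 43020 spots that were not controls. Between 155 and 281 spots per array carried an outlier mark and were dropped, no spot was saturated, and spots of a probe were averaged as log2 intensity minus the array's 75th percentile, with no pseudocount. Where a gene had several probes, the one brightest on average was used, and symbols came from RefSeq for 26761 of 39429 probes and otherwise from the files. A gene was called at 2-fold. For probes printed as 10 spots the pooled spot-to-spot SD (log2) was 0.0654 in the transfected tissue, 0.107 in Tg ligament, 0.0989 in WT ligament and 0.185 in stem cells. Having 1 array per group limits how precise any value can be.

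The 10 genes, the 16 lists and the rule for named genes were chosen with earlier results of these data known. The rule took the 10 genes, every gene of 4 cartilage lists, the 4 largest differences of each other list and the 3 nearest patterns of Sox9, Acan, Cilp and Prg4. Alternatives were normexp background correction with offset 50 (limma 3.58.1, R 4.3.3), quantile normalization, a 75th percentile taken over commonly detected probes, the deposited table, only genes detected on both arrays, no detection filter, the mean of all probes, and outlier spots kept. Other steps used Python 3.11.15, numpy 2.4.6 and pandas 2.3.3, and the calls were tested on simulated data.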

Additional observations from a re-analysis of the deposited data

Results flagged for a closer look

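Prg4 differed in opposite directions in the cell comparison and the ligament comparison. It was lower in the transfected tissue than in stem cells, by a bound of -3.37 on the log2 scale, and higher in Tg than in WT ligament, at 1.21. The difference between these effects was not tested, since each group is 1 array, and the value for the transfected tissue was not well above background.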

How the results depend on the processing

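No call of a cartilage gene turned its direction under the 8 alternatives. Restricted to genes detected on both arrays, which leaves out every bound, few cartilage genes kept a value. In the transfected tissue against stem cells 1 of 4 was higher and 0 lower, with 21.1% of all genes past 2-fold. In Tg against WT ligament 3 of 3 were higher (10.1% of all genes past 2-fold). In WT ligament against stem cells 1 of 2 was higher and 0 lower (57.9%). In the transfected tissue against WT ligament 0 were higher and 0 lower of the 1 gene with a value (58.3%). With no detection filter all 10 genes had a value. Then 2 were lower in the transfected tissue against stem cells, where 21.5% of all genes were past 2-fold either way. In WT ligament against stem cells 6 were higher and 2 lower (73.8%). In the transfected tissue against WT ligament 5 were lower, and Sox9, Cnmd and Ucma were higher (74.4%). The mean of all probes left 0 lower in the transfected tissue against stem cells, where Prg4 came to -0.94. Over all genes, normexp correction gave 1073 higher in the transfected tissue against stem cells and 405 higher and 575 lower in Tg against WT ligament, and genes detected on both arrays gave 681 higher in Tg against WT ligament. The main counts are 1961 for the transfected tissue and 1033 and 1158 for Tg ligament. Without the filter 2947 were higher and 3585 lower in the transfected tissue against stem cells, 2147 higher and 2097 lower in Tg against WT ligament, 17473 higher in WT ligament against stem cells and 17947 lower in the transfected tissue against WT ligament. That filter admits genes at background on both arrays.

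Other scalings shifted the median of all genes. In the transfected tissue against stem cells it shifted by -0.11 with normexp and 0.15 with another centring, and the share of calls that were higher was 33.0% and 56.2% in these settings, against 45.1% with the 75th percentile. In WT ligament against stem cells quantile normalization shifted it by -0.44 and the share was 49.9%, against 60.7% with the 75th percentile, 49.7% in the deposited values and 77.8% without the filter. In the transfected tissue against WT ligament the shift was 0.58 and the share 50.3%, against 36.6% with the 75th percentile, 50.4% in the deposited values and 20.7% without the filter. The median of the cartilage genes with a value in WT ligament against stem cells reversed, from 1.39 to -0.61 with quantile normalization and -0.65 in the deposited values. Cnmd, which has no value there in the main setting, had one in 3 of the alternatives, from -1.71 to -0.61. Other reversed medians were those of adipocyte markers in the transfected tissue against stem cells (-0.078) and of synovial lining markers in the transfected tissue against WT ligament (0.84), both over genes detected on both arrays, and of other matrilins and link proteins in WT ligament against stem cells (0.35 without the filter). Each of these reversed medians was taken over a different set of genes than in the main setting. Any further cause was not tested. Of the genes past 2-fold in the other lists, 13 of 41 in the transfected tissue against stem cells and 13 of 54 in Tg against WT ligament came under 2-fold in at least 1 alternative, and Cd44 in WT ligament against stem cells reversed to 0.06 with the mean of all probes. Of the remaining list medians, 300 moved by less than the spot noise and 207 by more. The median of the 10 Sox9 spots in place of their mean, chosen after seeing the data, gave -0.20 in the transfected tissue against stem cells and 0.75 in Tg against WT ligament. No paired analysis was possible because each group is 1 array, and for the same reason no array could be left out.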

Other observations

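Clec3a, a cartilage lectin, was detected in the transfected tissue only, with a signal of 73.3, and was at least 1.78-fold higher there than in stem cells. Col27a1, a collagen of developing cartilage, read 336 in the transfected tissue and 124 in stem cells and was not well above background in either ligament. Mef2c, a transcription factor of hypertrophic chondrocytes and of muscle, read 525 in Tg ligament and 629 in WT ligament, against 120 in the transfected tissue and 88.6 in stem cells. Pthlh, the signal that holds chondrocytes back from hypertrophy, was detected in the transfected tissue at 74.0 and in Tg ligament at 54.2, and in neither WT ligament nor stem cells. Its bounds did not reach 2-fold. They were at least 1.80-fold higher in the transfected tissue than in stem cells and at least 1.90-fold higher in Tg than in WT ligament.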
